A study of Mus musculus with 6 samples.

Results

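Colony-stimulating factors and the cytokines that act beside them on myeloid cells were described here in the mouse mammary carcinoma line 4T1 with an shRNA against the transcription factor NFAT1. The genes are Csf1, Csf2, Csf3, Lif, Il6, Il11, Il1a, Il33, Il23a and Tslp, and every probe set annotated to 1 gene symbol, that symbol being one of these, was kept, which gave 14 of the 45037 probe sets of the array table. Csf1 has 4 probe sets, Lif has 2 and the other 8 genes have 1 each. The NFAT1 shRNA group held 3 arrays of cells transduced with a vector expressing the NFAT1 shRNA, and the control shRNA group held 3 arrays of cells transduced with a control vector. In both groups adherent 4T1 cells were selected for 10 days in culture, and 200 ng of total RNA was labelled for an Affymetrix array. The labels name neither the shRNA sequence nor how many were used, and do not say whether a group is a pool or a clone, or whether its arrays came from separate cultures. The p-values therefore cover only how these samples vary, and that variation may be technical. Values are log2 RMA signals, differences are NFAT1 shRNA minus control shRNA, and with so few arrays the precision of each value is limited.

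CSF1, CSF2 and CSF3, also called M-CSF, GM-CSF and G-CSF, drive the growth and survival of macrophages, of granulocytes with macrophages, and of neutrophils. 4T1 tumours are known for a strong rise in granulocytes in the host, to which tumour-derived CSF3 contributes. LIF, IL-6 and IL-11 signal through the shared receptor chain gp130, IL-1α and IL-33 belong to the IL-1 family and can be released from damaged cells, IL-23 is a dimer whose own subunit is encoded by Il23a, and TSLP is an epithelial cytokine that acts on dendritic cells and other leukocytes. In T cells the phosphatase calcineurin, switched on by calcium, sends NFAT1 to the nucleus, and Csf2 is among the cytokine genes that NFAT proteins are known to activate there, together with AP-1.

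The arrays were not equally spaced. Among 314 probe sets that reached a signal of 7 on some array and spanned 1 or more over the controls, 99.4% had control 3 as the middle control. Chosen likewise over the NFAT1 shRNA arrays, 1967 probe sets had NFAT1 shRNA 1 in the middle for 6.2%. The correlation of NFAT1 shRNA 1 over all probe sets was 0.9859 and 0.9848 with the other NFAT1 shRNA arrays, and 0.9911 to 0.9945 with the 3 control arrays. Over all probe sets 90 passed an adjusted p under 0.05 with limma, and this count was 5794 without NFAT1 shRNA 1, and 0 without any 1 of the controls (3992 to 5086 at an unadjusted p under 0.05) or without NFAT1 shRNA 2 (4290). The differences of Csf1, Csf2, Csf3, Il1a, Il23a and Tslp are therefore also given without NFAT1 shRNA 1, without control 3, and without both. Nfatc2, which encodes NFAT1, was read by 6 probe sets, of which 4 had a lower and 2 a higher mean in NFAT1 shRNA cells, and 0 passed with limma (adjusted p at least 0.0707, 3 with an unadjusted p under 0.05). Probe set 1439205_at read 5.15, 5.43 and 5.29 on the NFAT1 shRNA arrays and 6.05, 6.18 and 5.91 on the control arrays. Probe set 1426032_at, the brightest, went the other way, at 6.19, 6.48 and 6.09 on the NFAT1 shRNA arrays and 5.92, 5.92 and 5.86 on the control arrays (difference 0.35, unadjusted p = 0.0194 by limma). Without overlap, 3 Nfatc2 probe sets were lower and 1 was higher, beside 9.33% and 11.6% of all probe sets. Of the 3 lower ones, 1425990_a_at and 1426031_a_at lay below the array medians on each array. The groups are therefore called here by their labels. The epithelial genes Epcam, Krt8 and Cdh1 read at least 11.80 on each array on their brightest probe sets, against array medians of 5.42 to 5.48, and 9 of 14 myeloid marker genes, Ptprc and Itgam among them, lay below the array medians on each array. The other 5 were Cd14, Cd68, Csf1r, Cd74 and Laptm5. Of these, Cd14 read 7.77 to 8.74 in NFAT1 shRNA cells and 7.77 to 8.39 in control cells, and Cd68 read 6.23 to 7.92 in NFAT1 shRNA cells and 6.22 to 6.85 in control cells (difference 0.76, adjusted p = 0.428 by limma). In a bulk culture fewer cells of a type and less RNA per cell cannot be told apart.

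Csf2 and Tslp were the members with the largest differences, both higher in NFAT1 shRNA cells, and all 4 Csf1 probe sets had a lower mean there. None of the 14 member probe sets passed limma's test with p-values adjusted over all probe sets, where 0.2% of all probe sets did (0.0755% higher and 0.124% lower). At an unadjusted p below 0.05, 2 were higher, those of Csf2 and Tslp, and 4 were lower, those of Csf1. That is 6 of 14, and 15.7% of all probe sets met the same condition, 8.03% higher and 7.65% lower. With the brightest probe set of each gene it is 3 of 10 genes, beside 17.1% of 18193 genes, since Csf1 then counts once. For 3 of the 14 the groups kept apart, all higher in NFAT1 shRNA cells, namely Csf2, Tslp and Il23a. Of all probe sets 20.9% did not overlap, 11.6% higher and 9.33% lower, and 0 members were lower without overlap. By mean, 6 member probe sets were higher and 8 lower, beside 54.2% and 45.8% of all probe sets, with a median difference of -0.15, against a median of 0.02 over all probe sets. The lean to lower values was not seen by gene, where on the brightest probe set 6 genes were higher and 4 lower, with a median of 0.13, against 0.04 over all genes. A mean difference of at least 1 in size was found for 2 member probe sets and for 1.39% of all probe sets. The exact permutation test over the 20 splits of the arrays gave 0.1 (2-sided) for the 3 members without overlap, the smallest value this design allows.

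**Figure D1:**
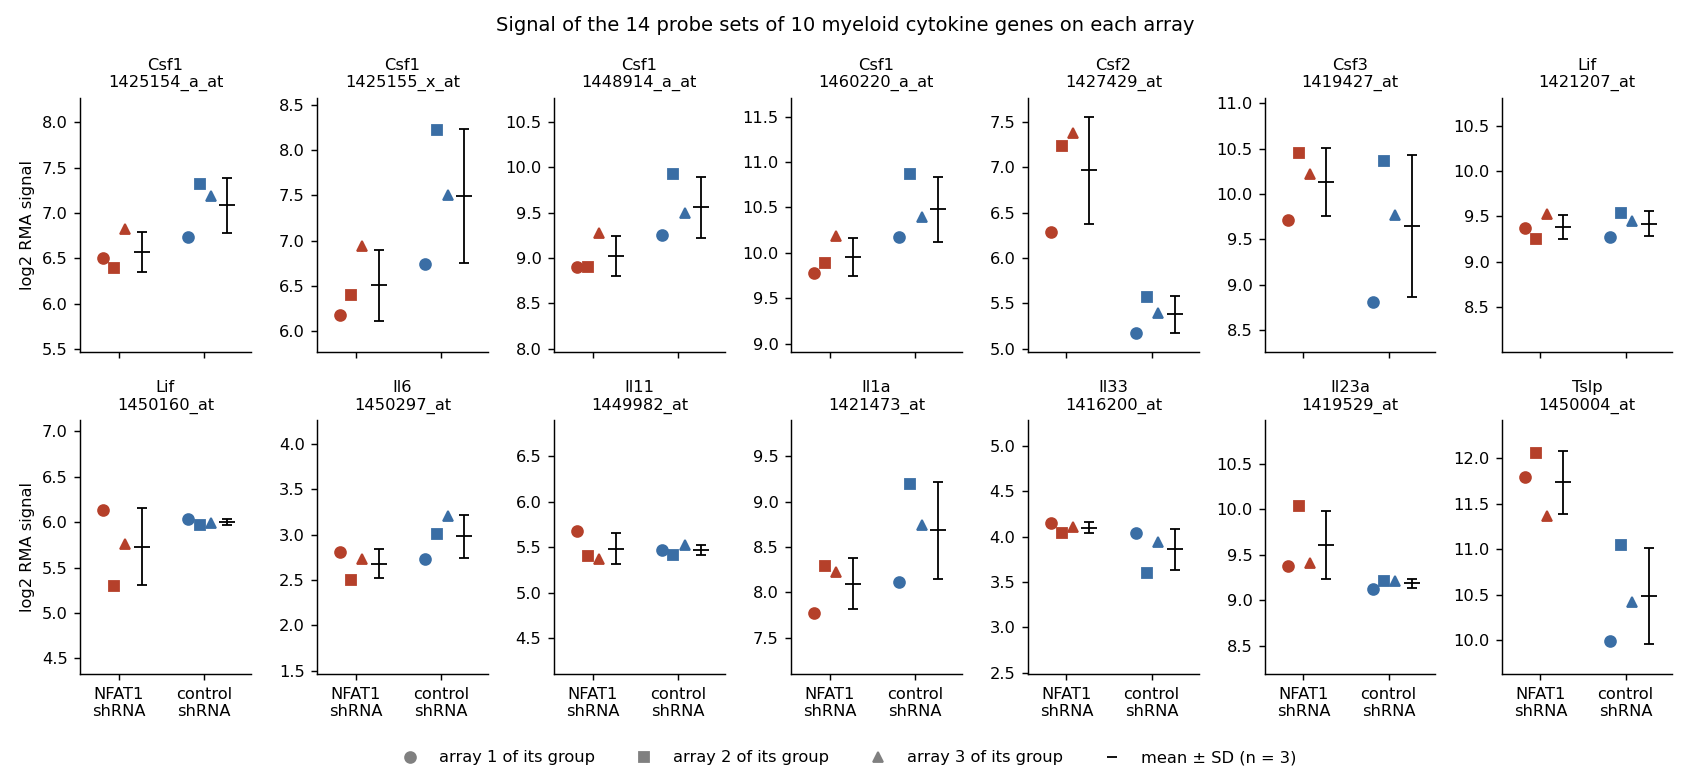
Log2 RMA signal (y axis, own range in each panel) of the 14 probe sets of the 10 genes, with the 3 NFAT1 shRNA arrays on the left of each panel and the 3 control shRNA arrays on the right. Symbols mark the array number and bars the mean ± SD. The Csf2, Tslp and Il23a groups do not overlap, and controls 1 and 2 lie far apart for Csf3, Csf1, Tslp and Il1a.

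Among the colony-stimulating factors, Csf2 read 6.29, 7.23 and 7.38 on NFAT1 shRNA 1 to 3, against 5.17, 5.57 and 5.39 on controls 1 to 3. Each NFAT1 shRNA array lay above each control array, and NFAT1 shRNA 1 was the nearest to them. The mean was 6.97 ± 0.59 in NFAT1 shRNA cells and 5.38 ± 0.20 in control cells (SD, n = 3 each). The difference was 1.59 ± 0.29 (SE; 95% interval 0.90 to 2.27), or 300.2% of the control signal, with an adjusted p of 0.103 by limma. On the control arrays the mean was under the overall median of 5.452, and at dim signals RMA can understate a fold. Csf2 did not pass with all arrays, and passed without NFAT1 shRNA 1 (1.93, adjusted p = 0.00465 by limma). In that setting 12.9% of all probe sets passed, and Csf2 was the single member to do so. Without control 3 the Csf2 difference was 1.59 (adjusted p = 0.432), and without both arrays it was 1.93 (adjusted p = 0.0640 by limma). The single array left out thus decided on which side of the threshold Csf2 lay. Its difference stayed between 1.38 and 1.93 over the 17 other settings tried, several of which cannot change a difference. Csf2 also passed with array weights, as 5.06% of all probe sets did, and in the fit with a replicate block, as 3.18% did. Tslp passed in both of these.

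Csf1 encodes the macrophage growth factor, and its 4 probe sets come from 2 accessions, so pairs of them share sequence and are not independent readings. Probe set 1460220_a_at, the brightest, read 9.78, 9.89 and 10.19 on the NFAT1 shRNA arrays and 10.17, 10.87 and 10.39 on the control arrays. NFAT1 shRNA 3 overlapped with control 1, the lowest control, and the other arrays kept apart. Its mean was 9.95 ± 0.21 in NFAT1 shRNA cells and 10.48 ± 0.36 in control cells (SD, n = 3 each). The difference was -0.53 ± 0.20 (SE; 95% interval -0.998 to -0.053; adjusted p = 0.292 by limma). That is 69.5% of the control signal. Probe set 1448914_a_at, of the same accession, read 8.89, 8.90 and 9.27 in NFAT1 shRNA cells and 9.25, 9.92 and 9.50 in control cells, and differed by -0.54 ± 0.19 (SE). The same single pair of arrays, NFAT1 shRNA 3 and control 1, overlapped. Probe set 1425154_a_at read 6.50, 6.39 and 6.82 in NFAT1 shRNA cells and 6.74, 7.32 and 7.19 in control cells, a difference of -0.51 ± 0.18 (SE). On 1425155_x_at the values were 6.18, 6.40 and 6.94 in NFAT1 shRNA cells and 6.75, 8.22 and 7.504 in control cells, a difference of -0.98 ± 0.38 (SE). This probe set is of the kind prone to cross-hybridisation, and it also had the widest spread of the 4 over the controls. The overlap again involved NFAT1 shRNA 3 and control 1. The adjusted p-values of the 4 by limma were 0.274 to 0.297, and their exact permutation p was 0.2 each. Of the 4 differences, 4 kept their sign in each setting tried, though several of the settings cannot change a difference. For 1460220_a_at the difference was -0.44 without NFAT1 shRNA 1, -0.57 without control 3, -0.48 without both and -0.33 without control 2, the highest control. Control 2 also weighed on 1425155_x_at, whose difference was -0.62 without it and -1.36 without control 1, and on 1448914_a_at, at -0.35 without it. On 1425155_x_at it was -0.82 without NFAT1 shRNA 1, -0.98 without control 3 and -0.81 without both, and on 1448914_a_at it was -0.47, -0.57 and -0.50 in these settings. On 1425154_a_at the same settings gave -0.48, -0.46 and -0.42.

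Csf3 encodes the neutrophil growth factor. It read 9.72, 10.45 and 10.22 on the NFAT1 shRNA arrays and 8.81, 10.36 and 9.77 on the control arrays. The groups overlapped over most of their range, since control 2 lay above 2 of the NFAT1 shRNA arrays and control 1 far below the other controls. The difference was 0.48 ± 0.39 (SE; 95% interval -0.45 to 1.41; adjusted p = 0.562 by limma). This interval holds a difference of the size seen for Tslp as well as none. Without control 1 the difference was 0.07 and without control 2 it was 0.84, so the Csf3 value rests on which controls are counted. It was 0.69 without NFAT1 shRNA 1, 0.54 without control 3 and 0.75 without both.

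**Figure D2:**
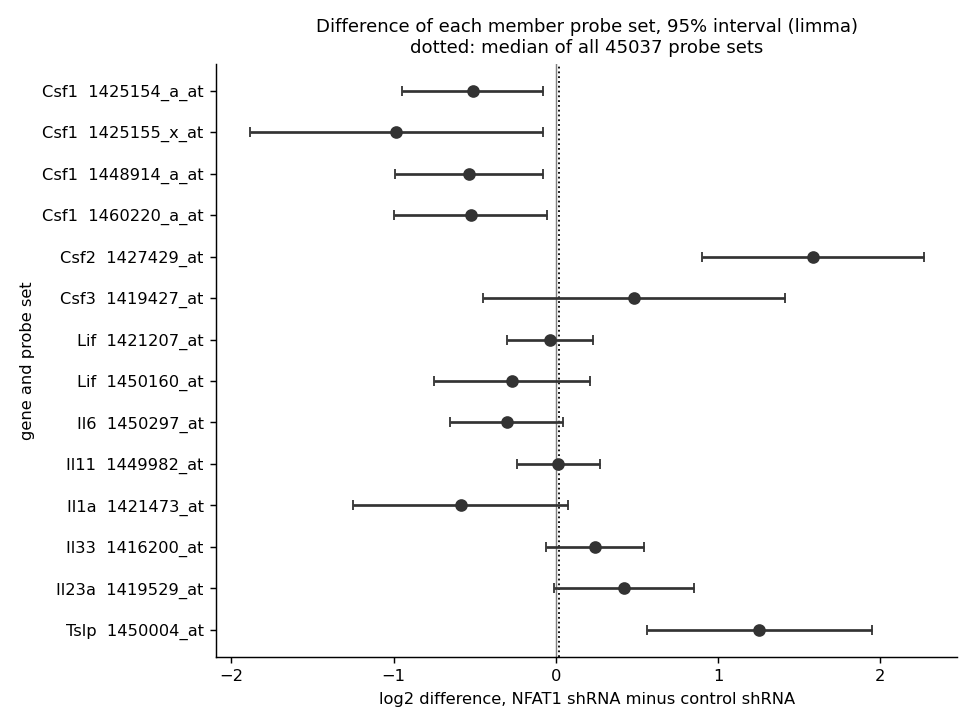
Log2 difference, NFAT1 shRNA minus control shRNA (x axis), of each member probe set with its 95% interval from limma over 3 arrays against 3. The dotted line is the median of all 45037 probe sets (0.02). The intervals of Csf2, Tslp and the 4 Csf1 probe sets leave out 0, before adjustment over all probe sets.

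RefSeq promoter sequences of the build GRCm38.p6 were read for 7 of the 10 genes. Csf3 and Il23a had no promoter entry, and Tslp was not read because entries of its chromosome were left out. The 250 bases before the RefSeq start are shown for Csf2, the member with the largest difference, and for Csf1 and Il1a, the genes with the lower means of at least 0.5, to set the motifs of the factors that act on cytokine genes beside the values. They lie on the minus strand at chr11:54249900-54250149 (Csf2), chr3:107760470-107760719 (Csf1) and chr2:129309973-129310222 (Il1a), upstream of each gene, and are written 5′ to 3′ along the gene. Capitals mark the NFAT core GGAAA, the AP-1 motif TGANTCA and the NF-kB consensus, each on either strand.
Csf2: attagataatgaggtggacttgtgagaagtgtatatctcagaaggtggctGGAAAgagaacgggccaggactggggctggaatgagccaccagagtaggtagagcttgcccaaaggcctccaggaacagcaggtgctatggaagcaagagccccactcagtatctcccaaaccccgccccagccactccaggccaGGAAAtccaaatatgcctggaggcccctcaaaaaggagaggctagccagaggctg
Csf1: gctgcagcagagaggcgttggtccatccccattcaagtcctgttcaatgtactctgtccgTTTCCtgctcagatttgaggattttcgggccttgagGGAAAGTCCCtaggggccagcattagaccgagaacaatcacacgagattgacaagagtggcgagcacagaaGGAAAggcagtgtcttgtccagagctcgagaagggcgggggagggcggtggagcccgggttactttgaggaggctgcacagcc
Il1a: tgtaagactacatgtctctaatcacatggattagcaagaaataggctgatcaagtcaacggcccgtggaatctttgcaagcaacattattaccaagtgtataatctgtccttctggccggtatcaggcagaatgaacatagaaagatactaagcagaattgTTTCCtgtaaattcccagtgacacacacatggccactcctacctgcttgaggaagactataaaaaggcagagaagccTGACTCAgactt
The Csf2 window held 2 matches to the NFAT core and 0 to the AP-1 and NF-kB motifs. The Csf1 window held 3 NFAT core matches, of which the one at position -154, counted from the start, overlaps the NF-kB match. The Il1a window held 1 NFAT core and 1 AP-1 match. Of the windows read but not shown, those of Il6 and of an Il11 start also held 3 NFAT core matches. Those of Lif and of an Il33 start held 1, and other Il11 and Il33 windows held 0. Of the first listed promoters of 27025 genes, 55.6% held the NFAT core at least once, 21.7% held 2 or more and 6.5% held 3 or more, while 6.87% held the AP-1 motif and 3.75% the NF-kB consensus. A match is only a run of letters, and other starts of Csf2, Csf1 and Il1a were not examined. The Csf2 start used here may not be the one used in studies of its promoter. Nothing about binding follows from a match or its absence.

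Of the cytokines that signal through gp130, none stood apart between the groups. Lif has 2 probe sets, and 1421207_at read 9.38, 9.26 and 9.52 in NFAT1 shRNA cells and 9.27, 9.54 and 9.45 in control cells. These values interleave. The Lif difference there was -0.04 ± 0.11 (SE), with a 95% interval of -0.30 to 0.23. On 1450160_at Lif read 6.14, 5.29 and 5.76 in NFAT1 shRNA cells, a wider range than the 6.04, 5.97 and 5.995 of control cells, and differed by -0.27 ± 0.20 (SE). Leaving out NFAT1 shRNA 2 gave -0.05, and leaving out NFAT1 shRNA 1 gave -0.47. Il6 lay below the array medians on each array, at 2.50 to 2.81 in NFAT1 shRNA cells and 2.73 to 3.20 in control cells. Il6 differed by -0.30 (95% interval -0.65 to 0.05), or by -0.19 without control 3, and at such a low signal RMA would compress a difference. Il11 read 5.37 to 5.68 in NFAT1 shRNA cells and 5.42 to 5.53 in control cells, with a difference of 0.02 (95% interval -0.24 to 0.27) whose sign turned in 6 of the settings tried. None of the 4 had an unadjusted p under 0.05 by limma.

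The IL-1 family members went in opposite directions by mean. Il1a, the gene of a cytokine made as a precursor that is active before cleavage, read 7.77, 8.29 and 8.22 on the NFAT1 shRNA arrays and 8.12, 9.19 and 8.74 on the control arrays. Control 1 lay below NFAT1 shRNA 2 and 3, and controls 2 and 3 lay above all NFAT1 shRNA arrays. The mean was 8.09 ± 0.28 in NFAT1 shRNA cells and 8.68 ± 0.54 in control cells (SD, n = 3 each). The difference was -0.59 ± 0.28 (SE; 95% interval -1.25 to 0.08; adjusted p = 0.356 by limma). It was -0.43 without NFAT1 shRNA 1, -0.56 without control 3, -0.40 without both, -0.87 without control 1 and -0.33 without control 2. Il33 lay below the array medians on each array, at 4.03 to 4.15 in NFAT1 shRNA cells and 3.60 to 4.03 in control cells. Its difference of 0.24 (95% interval -0.06 to 0.54) did not pass, and was 0.11 without control 2.

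Il23a encodes the subunit that sets IL-23 apart from IL-12, and read 9.37, 10.04 and 9.41 on the NFAT1 shRNA arrays and 9.13, 9.21 and 9.22 on the control arrays. The groups did not overlap, and NFAT1 shRNA 2 stood well above the other arrays. The mean was 9.61 ± 0.37 in NFAT1 shRNA cells and 9.18 ± 0.05 in control cells (SD, n = 3 each). The difference was 0.42 ± 0.18 (SE; 95% interval -0.01 to 0.85; adjusted p = 0.327 by limma). Without NFAT1 shRNA 2 the difference was 0.21, and without NFAT1 shRNA 1 it was 0.54. Without control 3 it was 0.44, and without both control 3 and NFAT1 shRNA 1 it was 0.55. The partner subunit gene Il12b, needed for the secreted dimer, read 3.53 to 3.73 in NFAT1 shRNA cells and 3.41 to 3.64 in control cells, below the array medians on each array.

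Tslp read 11.79, 12.06 and 11.37 on the NFAT1 shRNA arrays, against 9.99, 11.05 and 10.42 on the control arrays. All NFAT1 shRNA arrays lay above all control arrays, with control 2 and NFAT1 shRNA 3 the nearest, and here NFAT1 shRNA 1 did not lie towards the controls. The mean was 11.74 ± 0.35 in NFAT1 shRNA cells and 10.48 ± 0.53 in control cells (SD, n = 3 each). The difference was 1.25 ± 0.29 (SE; 95% interval 0.56 to 1.95), a 2.39-fold higher signal, with an adjusted p of 0.166 by limma. Without NFAT1 shRNA 1 it was 1.23 (adjusted p = 0.0604), without control 3 it was 1.22 (adjusted p = 0.494) and without both it was 1.19 (adjusted p = 0.192 by limma). Tslp thus stayed on the same side of the threshold in these 3 settings. Over all 17 settings its difference lay between 1.01 and 1.54, and several of these settings cannot change a difference.

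**Figure D3:**
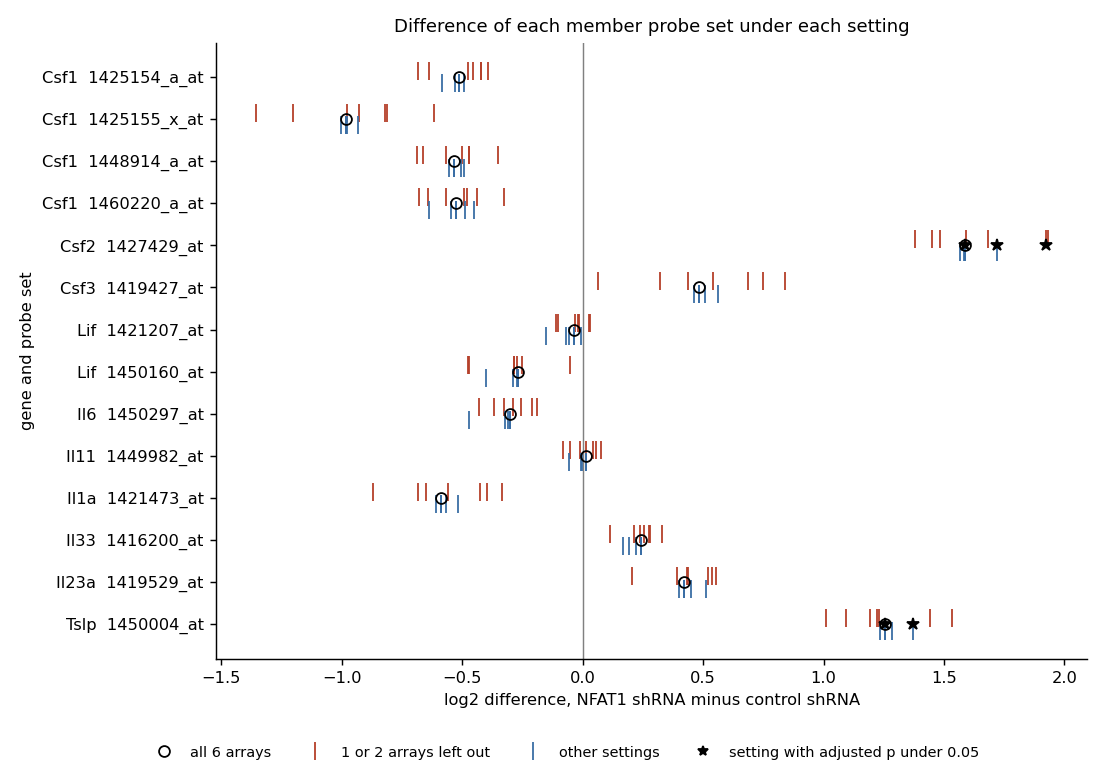
Log2 difference, NFAT1 shRNA minus control shRNA (x axis), of each member probe set with all 6 arrays (circles), with 1 or 2 arrays left out (red ticks) and under the other settings (blue ticks); stars mark settings with an adjusted p under 0.05. Stars appear for Csf2 (3) and Tslp (2), while Lif 1421207_at and Il11 have ticks on both sides of 0.

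The control arrays differed among themselves in these genes. The range over the 3 controls was at least 1 for 4 of the 14 member probe sets, those of Csf3, Il1a, Tslp and Csf1 1425155_x_at, and for 0.921% of all probe sets. Of the 10 member probe sets that reached 7 on some array it was 4, against 1.93% of the 16286 probe sets that did. Over the NFAT1 shRNA arrays a range of at least 1 was found for 1 member, Csf2, and for 5.88% of all probe sets. Control 1 was lowest, control 3 in the middle and control 2 highest for 9 of the 14 member probe sets, and for 22.9% of all probe sets. All Csf1 probe sets, which are not independent readings, are among the 9, and this share was not matched on signal. Among the members of this order, the difference from the NFAT1 shRNA arrays moved with the control left out most for Csf3. For Csf2, also of this order, the difference was 1.48, 1.68 and 1.59 without controls 1, 2 and 3. Whether the spread between controls has a part in the differences given above was not tested.

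The genes whose values followed those of a member most closely over the 6 arrays were found by Pearson's r on the brightest probe set of each gene. For Csf2 these were Aftph (r = 0.9988), Washc3 (r = 0.9985), Pitpnc1 (r = 0.9977), Sort1 (r = 0.9974) and Cetn4 (r = 0.9955). For Tslp they were Whrn (r = 0.9934), Ctsh (r = 0.9905), Vps52 (r = 0.9854), Scara5 (r = 0.9836) and Rapgef3 (r = 0.9828). For Csf1 the nearest were Marveld2 (r = 0.9968) and Myh10 (r = 0.9905), for Csf3 Smyd4 (r = 0.9956) and for Il1a Prdm15 (r = 0.9925). These are the highest of 9922 genes over only 6 arrays, which also share the 2-group layout, and are given as a description. Of the genes nearest to Csf2, Cetn4 differed by 1.13 and Sort1 by 0.17, so a high r was found for large and small differences alike.

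The receptors of the members were read next. Of the 17 receptor genes listed, 14 were read, and Il11ra1, Il1rl1 and Il23r were not. Of their 30 probe sets 0 passed with limma over all probe sets. At an unadjusted p under 0.05, 1 was higher and 1 was lower, which is 6.67% beside 15.7% of all probe sets. The higher one was of Csf3r, the receptor of CSF3. It read 4.07 to 4.29 in NFAT1 shRNA cells and 3.81 to 3.87 in control cells, below the array medians. Csf1r, the receptor of CSF1, read 6.99, 9.01 and 8.26 in NFAT1 shRNA cells and 8.08, 8.49 and 8.23 in control cells. The NFAT1 shRNA arrays lay on both sides of the controls, and the difference was -0.18 (adjusted p = 0.874 by limma). The CSF2 receptor genes Csf2ra and Csf2rb lay below the array medians on each array, at 4.91 to 5.24 and 4.08 to 4.35 in NFAT1 shRNA cells and at 5.07 to 5.17 and 4.08 to 4.19 in control cells. Crlf2, the receptor chain specific for TSLP, read 8.52 to 9.06 in NFAT1 shRNA cells and 8.43 to 8.58 in control cells, whereas its partner Il7r lay below the array medians on each array. The gp130 gene Il6st differed by 0.04 on its brightest probe set and by -0.31 ± 0.12 (SE) on another, the single receptor probe set counted as lower (adjusted p = 0.303 by limma). Il6ra, the IL-6 binding chain, read 6.86, 9.03 and 7.96 in NFAT1 shRNA cells and 6.31, 7.35 and 6.92 in control cells, a difference of 1.09 ± 0.54 (SE; adjusted p = 0.369 by limma).

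The kinases, STAT proteins and feedback inhibitors that relay these receptors' signals were read by 56 probe sets of 22 genes. With limma 0 passed over all probe sets, and at an unadjusted p under 0.05, 15 were higher and 2 lower, which is 30.4% of the list beside 15.7% of all probe sets. Socs2, Jak2, Stat5a and Ptpn6 were each counted repeatedly among the higher ones, so the count by gene is smaller. The list's median difference was 0.18, against 0.02 over all probe sets. Jak2, the kinase of the CSF2 and TSLP receptors, read 10.04, 10.65 and 10.64 in NFAT1 shRNA cells and 8.87, 9.40 and 9.21 in control cells, without overlap. Its difference was 1.28 ± 0.21 (SE; adjusted p = 0.0843 by limma). Socs2, a feedback inhibitor whose gene is a STAT5 target, differed by 1.09 ± 0.44 (SE; adjusted p = 0.311) and the kinase gene Tyk2 by 0.99 ± 0.38 (SE; adjusted p = 0.295 by limma). On these probe sets, the brightest of each gene, the groups overlapped. Another Tyk2 probe set differed by -0.07.

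**Figure D4:**
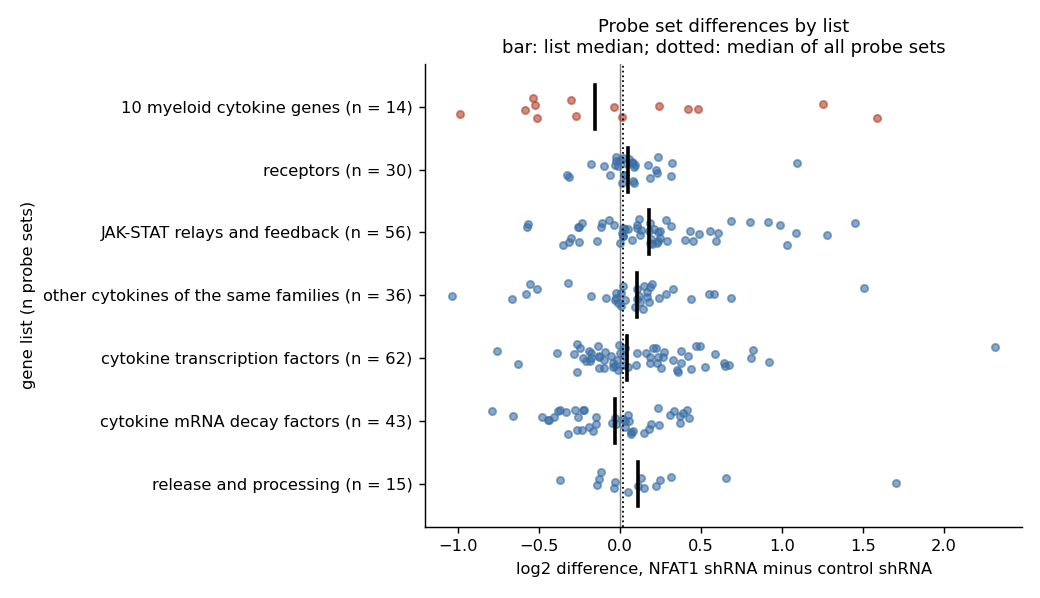
Log2 difference, NFAT1 shRNA minus control shRNA (x axis), of the probe sets of the 10 member genes (red) and of 6 lists of related genes (blue). Bars mark each list's median and the dotted line the median of all probe sets. The member median is -0.15 and that of the JAK-STAT list 0.18.

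Other cytokines of the same families were read by 36 probe sets of 26 genes, of which 0 passed with limma. At an unadjusted p under 0.05, 4 were higher and 2 were lower, 16.7% of the list beside 15.7% of all probe sets. Il18, an IL-1 family cytokine that caspase-1 activates, read 7.57, 8.70 and 8.76 in NFAT1 shRNA cells and 6.55, 7.18 and 6.78 in control cells. The groups did not overlap, and the difference was 1.51 ± 0.34 (SE; adjusted p = 0.155 by limma). Il34, the second ligand of the CSF1 receptor, differed by 0.58 ± 0.14, and Kitl, the ligand of the receptor KIT, by 0.55 ± 0.22 (SE). Il7, which shares the chain IL7R with TSLP, differed by -0.58 ± 0.18 (SE). Among 15 probe sets of 9 genes for the release and processing of cytokines 0 passed with limma. At an unadjusted p under 0.05, 3 were higher and 1 was lower, 26.7% of the list beside 15.7% of all probe sets. Casp1, which cleaves the IL-18 precursor, read 5.80, 6.97 and 7.46 in NFAT1 shRNA cells and 4.21, 5.64 and 5.27 in control cells, a difference of 1.70 ± 0.51 (SE; adjusted p = 0.228 by limma). The pore-forming protein gene Gsdmd differed by 0.65 and S100a13, which takes part in the export of IL-1α, by 0.31. Adam17, the protease that sheds several cytokines and receptors, differed by -0.37.

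Transcription factors of cytokine genes were read by 62 probe sets of 24 genes, with 0 past limma's threshold. At an unadjusted p under 0.05, 12 were higher and 2 lower, 22.6% of the list beside 15.7% of all probe sets. The list includes Nfatc2, the gene the shRNA targets, which supplied the 2 lower probe sets and 1 of the higher ones. Several of the other higher probe sets were of Nfat5. Nfat5, the osmotic stress factor related to the NFAT proteins, read 9.85, 10.68 and 10.49 in NFAT1 shRNA cells and 9.20, 9.58 and 9.47 in control cells on its brightest probe set. These did not overlap, and the difference was 0.92 ± 0.23 (SE; adjusted p = 0.180 by limma). Runx1, a factor of blood cell development known to act on the Csf2 promoter, differed by 0.42 ± 0.17 (SE). Of 43 probe sets of 14 genes whose products control the decay or translation of cytokine mRNAs, 0 passed with limma. At an unadjusted p under 0.05, 4 were higher and 8 were lower, 27.9% of the list beside 15.7% of all probe sets. Tia1 was counted repeatedly among the higher ones and Tial1 among the lower ones. Zc3h12c, of the family of the ribonuclease regnase-1, read 6.15, 6.08 and 6.34 in NFAT1 shRNA cells and 7.002, 6.75 and 6.79 in control cells. Its difference was -0.66 ± 0.11 (SE; adjusted p = 0.0898 by limma). Tial1, an RNA-binding protein of AU-rich sequences, differed by -0.22.

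The summed linear signal of the 14 myeloid marker genes ran from 712 to 1464 on the NFAT1 shRNA arrays and from 838 to 1089 on the control arrays. That of the 9 lymphocyte and mast cell markers ran from 224 to 255 on the NFAT1 shRNA arrays and from 233 to 237 on the control arrays. For the 7 fibroblast markers the sums were 271 to 497 in NFAT1 shRNA cells and 222 to 380 in control cells, and for the 5 endothelial markers 103 to 123 in NFAT1 shRNA cells and 95.7 to 100.4 in control cells. The sums of the 10 mammary epithelial markers were 37748.8 to 42144.5 in NFAT1 shRNA cells and 38544.5 to 40297.2 in control cells. Of their 18 probe sets 9 had a higher mean in NFAT1 shRNA cells, and the median difference was -0.0126. Among these markers was the basal keratin gene Krt14, named after its values were seen. On its brightest probe set Krt14 read 9.38, 7.46 and 8.40 on the NFAT1 shRNA arrays and 10.67, 10.38 and 10.56 on the control arrays (adjusted p = 0.137 by limma). The part of Krt14-expressing cells in the cytokine differences was not tested.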

How the data were processed

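Affymetrix mouse arrays measured the RNA of 3 NFAT1 shRNA and 3 control shRNA samples, 6 in all, grouped and numbered as in the labels. The deposited values are log2 signals. Per the submitters' processing notes, the authors used RMA, whose version is not given in the sources used here. RMA gives all arrays nearly the same distribution, so that a change common to most transcripts cannot be seen, and it draws dim probe sets together. Arrays have no read depth.

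Probe sets were named through the platform annotation, in which 34945 of 45037 had 1 gene symbol, 932 had several and 9160 are not named here. By gene number, 34741 matched the RefSeq gene table, which changed 0 symbols. All 45037 probe sets entered limma 3.58.1 (lmFit, then eBayes; R 4.3.3) with no filter and no covariate, and the Benjamini-Hochberg adjustment ran over all of them. The test was checked on simulated data with independent noise on each array. Such data lack the unequal spacing of the arrays described above, so the check does not cover it. Tests are 2-sided. Exact permutation tests used Python 3.11.15 and scipy 1.17.1.

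The members, lists, motifs and settings were chosen with earlier results of these data known. The rule for named genes took all probe sets of the members and Nfatc2, receptors and partner subunits of members, and, from each list, up to 3 genes each way with the largest difference at an unadjusted p under 0.05 and a mean of at least 6 in the higher group. Marker genes followed their level, and Ptprc, Itgam, Epcam, Cdh1, Krt14, Cd68 and the second probe set of Il6st were named after their values were seen. For members with a range of at least 1 over the 6 arrays it took the 5 genes, with a mean of at least 6 in 1 group, with the highest r, of which the text gives a part for 3 members. Lists hold no member gene, and a gene's brightest probe set is that with the highest mean.

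Alternatives were filters on dim probe sets, array medians subtracted, a repeated quantile normalization, array weights, a variance prior with trend and robust fitting, a block for the replicate number, each array left out, control 3 and NFAT1 shRNA 1 left out together, 1 probe set or the mean per gene, and leaving out probe sets with IDs ending in _x_at or _s_at.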

Additional observations from a re-analysis of the deposited data

How the results depend on the processing

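The count of member probe sets past the threshold with limma, 0 with all arrays, was 2 with array weights (Csf2 and Tslp, beside 5.06% of all probe sets), 2 in the fit with the replicate block (the same pair, beside 3.18%) and 0 to 1 leaving out single arrays, Csf2 without NFAT1 shRNA 1. It was 0 in the other 14 settings, with 2 to 9 member probe sets at an unadjusted p under 0.05 in them. The Csf2 difference was 1.72 with array weights (adjusted p = 0.0143), 1.59 with the replicate block (adjusted p = 0.0129) and 1.38 to 1.93 leaving out single arrays (adjusted p from 0.00465 to 0.432). Tslp had an adjusted p of 0.0375 with array weights and 0.0263 with the replicate block. Array weights gave control 3 a weight of 5.01 and NFAT1 shRNA 1 one of 0.368. The count over all probe sets was 2279 with array weights, 1432 with the replicate block, 0 to 5794 leaving out single arrays and 0 without both control 3 and NFAT1 shRNA 1, where 9273 had an unadjusted p under 0.05. Among the 242 probe sets of the listed genes 1, of Socs4 (chosen after its values were seen), passed with a trended and robust variance prior. It lay below the array medians on each array, at 2.30 to 2.44 in NFAT1 shRNA cells and 2.87 to 3.02 in control cells. The brightest Socs4 probe set differed by -0.25 (adjusted p = 0.345 by limma with all arrays). With array weights 16 passed, beside 5.06% of all probe sets, and with the replicate block 19, beside 3.18%. Both counts include Nfatc2 1439205_at and more than 1 probe set of Jak2. Leaving out single arrays gave 0 to 40, with 40 reached without NFAT1 shRNA 1, where 12.9% of all probe sets passed. The Lif 1421207_at difference ran from -0.11 to 0.029 leaving out single arrays, and turned to 0.026 without control 2 and 0.029 without NFAT1 shRNA 2. That of Il11 turned to -0.0045 with array medians subtracted, -0.0094 with quantile normalization again, -0.058 with array weights, -0.012 without control 2, -0.082 without NFAT1 shRNA 1 (range -0.082 to 0.074 leaving out single arrays) and -0.053 without both control 3 and NFAT1 shRNA 1. That of Nfatc2 turned to -0.00016 on 1425901_at without control 2 (range -0.00016 to 0.081 leaving out single arrays), and to -0.14 on 1426032_at with the mean of its probe sets. The filters on dim probe sets, the variance prior and the replicate block leave each difference as it was, so they cannot turn a sign. Keeping 1 probe set per gene or leaving out _x_at and _s_at ones also changes no difference. In all, 215 of 223 values of member probe sets under other settings kept their sign, with these unchanged ones counted among them. The causes were not tested. Deviations from the group means of same-numbered arrays correlated at 0.619, 0.513 and 0.051 for numbers 1, 2 and 3. NFAT1 shRNA 1 correlated at -0.58 with control 2, and NFAT1 shRNA 2 at -0.521 with control 1. NFAT1 shRNA 3 correlated best with control 2 (0.269). The numbers were not taken to pair the samples, and these values do not decide whether they do.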
